A study of Mus musculus with 7 samples.

Results

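In CD4+ T helper cells, 351 genomic windows of 200 bp held BRG1 ChIP-seq reads in stimulated Th1, Th2 and Th17 cells alike and few or none in naive and resting cells. A member is an autosomal window with at least 4 RPM in each of the 3 stimulated libraries. It has at most 1.5 RPM in each of naive, resting Th1 and resting Th2, and each stimulated level is at least 3 times the input level plus 0.3 RPM. RPM is the number of reads per 1000000 distinct reads of a library, with 1 read kept per position and strand and all chromosomes but Y in the total. Which chromosomes make up that total is a choice: with autosomal reads only, 274 windows met the rule, and 238 of the 351 (67.8%) were among them. The 351 members stand among 7552364 autosomal windows that held at least 1 read in any library, and they cover 70200 bp. Joined over gaps of up to 1 window they form 331 regions, of which 311 are 200 bp wide, 18 are 400 bp and 2 are 600 bp. The levels in all 7 libraries were used to choose the members, so these levels and the contrasts between states are a description, with no test.

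BRG1 is the ATPase motor of the mammalian SWI/SNF (BAF) complex, which uses ATP to slide or evict nucleosomes and so changes the access of other proteins to DNA. It binds promoters and distal enhancers, mostly through partner transcription factors and acetylated histones. PMA, a phorbol ester, activates protein kinase C, and ionomycin is a calcium ionophore. Together they bypass the T cell receptor and activate NFAT, AP-1 and NF-kB, the factors that turn on early activation genes and cytokine genes in helper T cells.

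The stimulated groups were Th1, Th2 and Th17 cells after 1.5 h with 50 ng/ml PMA plus 500 ng/ml ionomycin. The unstimulated groups were naive CD4+CD62L+ cells used directly from the mouse, and Th1 and Th2 cells left at rest. The starting cells, 95% pure, came from spleens and lymph nodes of Balb/c mice that were 4 to 6 weeks old, and the labels name no altered gene. BRG1 was precipitated with an antibody named J1 from chromatin fixed with formaldehyde. Th1 cultures contained 1 ng/ml IL-12 with an antibody to IL-4, and Th2 cultures 10 ng/ml IL-4 with an antibody to IFNγ. Th17 cultures contained 100 ng/ml IL-6 with 10 ng/ml IL-1β, 1 ng/ml TGF-β and both antibodies, and were expanded in 10 ng/ml IL-23. Plate-bound antibodies to CD3 and CD28 activated the Th1 and Th2 cultures, and IL-2 was added to them, while Th17 cultures had soluble antibodies. The control was input DNA of pooled CD4+ T helper cells. No resting Th17 library was used here, so stimulated Th17 is set against naive, and that pair differs in differentiation as well as stimulation.

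Each group has 1 library, so no difference below has a replicate check, and every ratio compares libraries, not conditions. All intervals are 95% intervals that cover counting error only. Distinct reads numbered 3917492 to 7892944 in the stimulated libraries, 1340208 to 2071800 in the unstimulated ones and 3531867 in input. Reads that repeated a position made up 10.2% to 11.8% of the stimulated libraries, 28.5% to 41.4% of the unstimulated ones and 7.24% of input. At these depths 1 read was worth 0.127 to 0.255 RPM in stimulated libraries and 0.483 to 0.746 RPM in unstimulated ones, where a count of 0 allows 1.45 RPM in naive, 1.66 RPM in resting Th1 and 2.24 RPM in resting Th2. Depth and repetition thus moved with stimulation. With every BRG1 library thinned to the shallowest, 380 windows met the rule, of which 185 were members, and with all reads kept 686 did. Beyond such alternatives, given at the end, their part in the results was not tested. Positions are on mm9. No gene annotation and no genome sequence of mm9 was used, so members carry coordinates only, gene names and sequence letters are not given, and the identity of the cells could not be checked at marker genes.

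Stimulated Th1 cells had the highest levels at the members and stimulated Th17 cells the lowest. The median member held 7.40 RPM in stimulated Th1 (range 4.08 to 21.7), 6.34 RPM in stimulated Th2 (4.22 to 17.6) and 5.07 RPM in stimulated Th17 (4.05 to 11.3). In unstimulated cells the median was 0 RPM in naive, 0.553 RPM in resting Th1 and 0.746 RPM in resting Th2, against 0.566 RPM in input. The unstimulated medians are the worth of 0 or 1 read. Summed over all members there were 11289 reads for stimulated Th1, 10387 for stimulated Th2 and 14908 for stimulated Th17, against 211 in naive, 272 in resting Th1 and 300 in resting Th2. Input held 761.

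**Figure D1:**
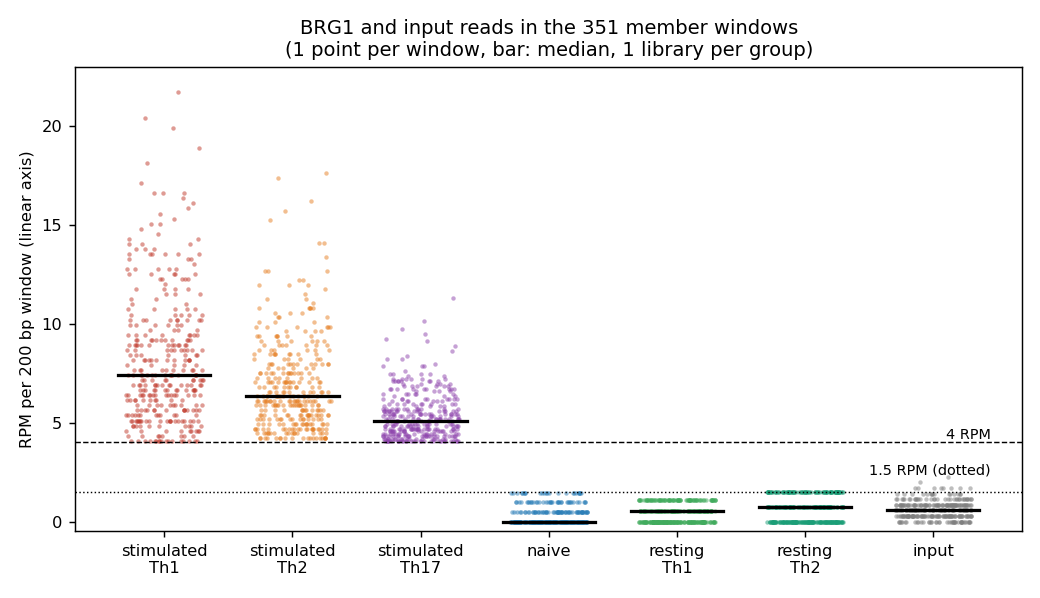
RPM (linear axis) of the 351 member windows in each of the 7 libraries, 1 point per window, with the median as a bar and the cut-offs of 4 and 1.5 RPM as lines. The medians fall in the order stimulated Th1, Th2 and Th17 (7.40, 6.34 and 5.07 RPM), and unstimulated points sit at whole reads from 0 up, as the choice of members requires.

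Most members were empty in naive cells and many were empty in resting cells. No read was found at 225 of the 351 members in naive, at 163 in resting Th1 and at 146 in resting Th2, and 60 members had none in all 3 unstimulated libraries. The median member had 2 reads over these 3 libraries together, and the highest had 7.

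The input itself was raised at the members. Its mean there was 0.614 RPM (0.571 to 0.659), 4.84 times its mean over all autosomal windows with reads in any library. The stimulated libraries held 13.4 (12.4 to 14.4), 11.3 (10.5 to 12.2) and 8.77 (8.15 to 9.44) times the input density in Th1, Th2 and Th17. The naive library lay below the input, at 0.473 times its density (0.404 to 0.551), and so did resting Th1 at 0.698 (0.606 to 0.803). Resting Th2 stood at 1.04 times the input (0.906 to 1.19), which is not distinguishable from it at this depth. The ceiling of 1.5 RPM keeps unstimulated reads low at members by construction, and the input had a ceiling only relative to the stimulated levels.

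Pooled over members, the level in stimulated Th1 was 19.2 times that in resting Th1 (17.0 to 21.7), 8.21 against 0.429 RPM per window. Stimulated Th2 was at 10.9 times resting Th2 (9.71 to 12.3), with 6.94 against 0.638 RPM. Stimulated Th17 was at 18.5 times naive (16.2 to 21.3), with 5.38 against 0.290 RPM. The same reads chose the members and give these folds. When windows were chosen by the same rule on a random 50% of each library's reads and counted on the other 50%, the folds were 9.34 in Th1, 5.63 in Th2 and 12.1 for Th17 against naive.

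The reads left out of that choice show how far each level depended on it in the windows so chosen. Of those 369 windows, 195 (52.8%) were among the 351 members. With fewer reads a single read also weighs more against each cut-off, so these values do not measure the 351 members themselves. Of the 369 windows chosen on 50% of the reads, the floor of 4 RPM was reached again by 335 in stimulated Th1, by 314 in stimulated Th2 and by 250 in stimulated Th17. They were again at or under 1.5 RPM in 331 cases in naive, 302 in resting Th1 and 297 in resting Th2. All cut-offs together were met again by 98 windows, 26.6%. In the reads not used for the choice, the stimulated means were 8.15, 6.65 and 4.95 RPM in Th1, Th2 and Th17, close to those of the reads that were used (8.39, 7.14 and 5.55 RPM). Means of the unstimulated libraries were higher than in the reads used, at 0.408 against 0.235 RPM in naive, 0.872 against 0.408 in resting Th1 and 1.18 against 0.526 in resting Th2. Over the input of the same reads, naive was still below 1, at 0.581 (0.481 to 0.698), while resting Th1 was at 1.24 (1.07 to 1.44) and resting Th2 at 1.68 (1.45 to 1.95). These are 2 parts of 1 library each and not replicates.

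Across all autosomal windows with at least 10 reads in the pair, 19.3% were called 3-fold or more above resting Th1 in stimulated Th1, with an interval that left out 1, and 2.13% below it. Of the 351 members, 344 were called higher and 0 lower. For stimulated against resting Th2 the share of all tested windows was 7.9% higher and 2.19% lower, with 314 members higher and 0 lower. For stimulated Th17 against naive it was 11.2% higher and 2.15% lower, with 339 members higher and 0 lower. The rule used these contrasts, so nothing is read from the members' counts. The 3 comparisons share no library.

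The 10 regions with the highest level in their weakest stimulated library lay on 8 chromosomes. The first, on chromosome 14 at 121309601 to 121309800, had 21.7, 14.1 and 11.3 RPM in stimulated Th1, Th2 and Th17, against 0.965 in naive, 0 in both resting libraries and 0.849 in input. With a floor of 3 counts put in place of 0 reads in a resting library, that was 13.1-fold higher after stimulation in Th1 and 6.29-fold in Th2. The exact intervals reached lower, to 10.4 in Th1 and 4.96 in Th2. A region on chromosome 8 from 124985001 to 124985200 had no read in any unstimulated library, with 65, 51 and 80 reads in stimulated Th1, Th2 and Th17 and 4 in input. With the same floor of 3 counts, its level was 5.35-fold higher after stimulation in Th2. The lower ends of the exact intervals were 7.90 for Th1, 4.19 for Th2 and 5.56 for Th17 over naive.

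The next 4 regions had 0 to 2 reads in each unstimulated library, counts whose intervals overlap. At 116177601 to 116177800 on chromosome 3, the stimulated libraries held 15.1, 9.85 and 9.25 RPM in Th1, Th2 and Th17. All 3 unstimulated libraries had 2 reads there, which is 0.965 RPM in naive, 1.11 in resting Th1 and 1.49 in resting Th2, all below the input at 1.70 RPM. The fold in Th1 was 13.6 (3.61 to 115). On chromosome 11 at 95879401 to 95879600 the stimulated levels were nearly even, 10.7, 9.15 and 9.12 RPM, with 2 reads in resting Th2 and none in naive or resting Th1. The other region on chromosome 11, at 115521801 to 115522000, had 13.8, 12.7 and 8.87 RPM after stimulation and 1 read in naive, 2 in resting Th1 and 0 in resting Th2. On chromosome 9, positions 96550401 to 96550600 had 20.4, 11.7 and 8.62 RPM in stimulated Th1, Th2 and Th17. Resting Th1 had 1 read there, naive and resting Th2 none and input 1, which gives a fold of 36.9 in Th1 with an interval from 6.44 to 1476.

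In their best windows, the remaining 4 of the 10 had 41 to 63 reads in stimulated Th1, 41 to 46 in stimulated Th2 and 63 to 66 in stimulated Th17, and no read in naive. They lay on chromosome 8 at 124698001 to 124698200, on chromosome 10 at 80221401 to 80221800 (best window 80221601 to 80221800), on chromosome 4 at 133170401 to 133170600 and on chromosome 2 at 58895201 to 58895400. The first of these had the highest input of any member, 8 reads or 2.27 RPM, against 14.0, 10.8 and 8.36 RPM in stimulated Th1, Th2 and Th17. In each of the 10 regions stimulated Th1 had the highest RPM and stimulated Th17 the lowest.

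**Figure D2:**
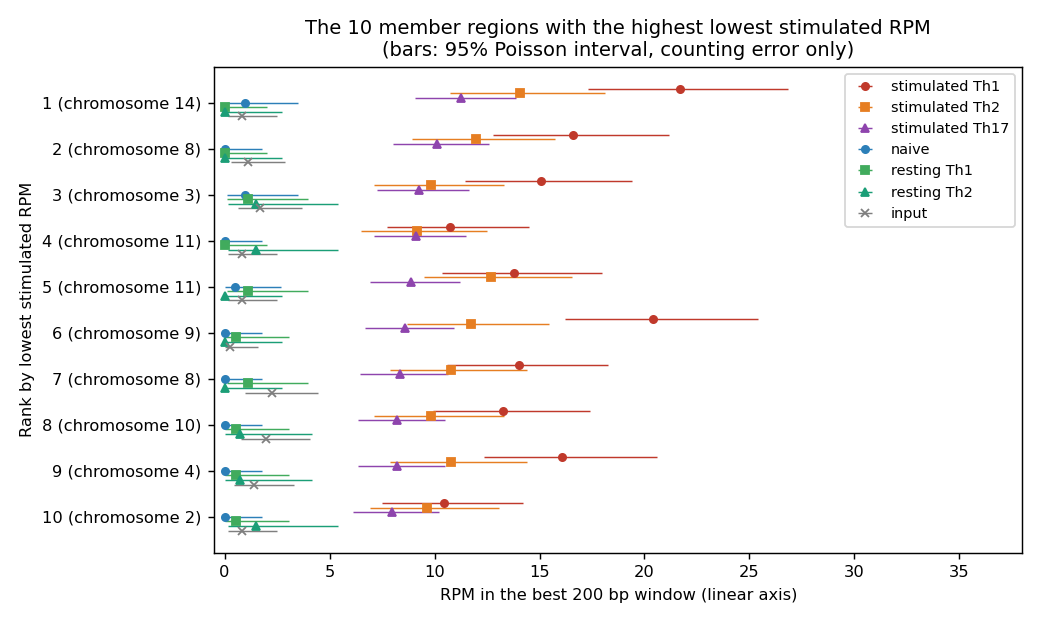
RPM (linear axis) with 95% Poisson intervals of the 7 libraries in the best window of the 10 member regions with the highest lowest stimulated RPM, in rank order from the top. Stimulated levels run from 7.98 to 21.7 RPM and unstimulated ones from 0 to 1.49 RPM.

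Members were narrow, and only 2 regions spanned 600 bp. The region at 94183801 to 94184400 on chromosome 3 held 74, 62 and 99 reads in stimulated Th1, Th2 and Th17, against 1 in naive, 1 in resting Th1 and 2 in resting Th2. The region at 94947201 to 94947800 on chromosome 11 held 49, 55 and 105 stimulated reads, against 0 in naive, 0 in resting Th1 and 1 in resting Th2. Their input counts were 5 and 5. Among regions of 400 bp, the most reads lay on chromosome 10 at 80221401 to 80221800, on chromosome 7 at 16534001 to 16534400 and on chromosome 10 at 84189801 to 84190200. The region on chromosome 7 was the most uneven of the 5 between subsets, with 25.02, 21.1 and 9.38 RPM in stimulated Th1, Th2 and Th17, from 98, 90 and 74 reads. It held 1.93 RPM in naive, 1.66 in resting Th1 and 1.49 in resting Th2 over its 2 windows.

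Windows beside the members, whose own counts did not choose them, were also higher after stimulation. Over the 1324 windows that lie 1 or 2 windows from a member region and are not members, the level in stimulated Th1 was 4.74 times that in resting Th1 (4.43 to 5.06), 1.94 against 0.409 RPM. In Th2 the fold was 3.41 (3.18 to 3.65), with 1.72 against 0.506 RPM, and stimulated Th17 was at 5.20 times naive (4.83 to 5.60), with 1.43 against 0.275 RPM. Fragments of a bound site reach these windows, so they are not separate sites and their counts are tied to those that chose the members. By construction none of them met the rule. With windows 2 to 5 away in place of these, the folds were 2.52, 2.00 and 3.31 for Th1, Th2 and Th17 over naive. They were 2.27, 1.82 and 3.18 over windows 6 to 10 away, and 1.96, 1.59 and 2.45 over windows 21 to 25 away. Folds above 1 thus extended out to 5000 bp from the members. They were also found around other windows, where they were smaller. At 5000 bp from the members' best windows, stimulated Th1 had 0.396 RPM against 0.192 in resting Th1. Stimulated Th2 had 0.346 against 0.224 in resting Th2, and stimulated Th17 0.389 against 0.157 in naive. At 5000 bp from the 1369 other windows described below, stimulated Th1 had 0.379 RPM against 0.223 in resting Th1. Stimulated Th2 had 0.332 there against 0.272 in resting Th2, and stimulated Th17 0.361 against 0.195 in naive. Among all single windows with at least 10 reads in the pair, the median ratio was 1.73, 1.42 and 2.62. That filter favours windows high in the deeper stimulated library, so these medians are no baseline for the pooled folds. Over all autosomal windows with reads in any library the means were nearly even. They were 0.1289 RPM in stimulated and 0.1272 in resting Th1, 0.1286 and 0.1275 in Th2, and 0.1295 in stimulated Th17 against 0.1265 in naive.

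Around the members the stimulated signal was a sharp peak on a broad rise. At 200 bp from the best window, the mean was 2.71, 2.38 and 1.90 RPM in stimulated Th1, Th2 and Th17, which is 32.9% of the centre in Th1 and 35.0% in Th17. At 1000 bp it was 0.639, 0.575 and 0.634 RPM, 3.72, 3.35 and 3.70 times the input. At 5000 bp it was still 2.63, 2.29 and 2.58 times the input. The broad rise was not particular to members. Around the 1369 other windows described below, the stimulated means were 3.97, 3.69 and 3.77 times the input at 1000 bp. They were 2.50, 2.19 and 2.39 times the input at 5000 bp.

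The unstimulated libraries had no peak of that height. The naive mean was 0.289 RPM at the centre (0.250 to 0.332), 0.296 at 200 bp and 0.257 at 400 bp, and resting Th1 had 0.429, 0.436 and 0.386 RPM at the same distances. Resting Th2 had 0.651, 0.593 and 0.425 RPM. The centre values are held down by the ceiling of the rule. The values beside it have no ceiling, but fragments of a site reach them too, so low centres also favour low neighbours. At 200 bp from the 1369 other windows described below, naive had 1.34 RPM, resting Th1 1.92 and resting Th2 2.03. Nothing is read from the low values beside members. Against the input, resting Th1 was at 0.693 at the centre, 1.37 at 200 bp (1.22 to 1.54) and 1.93 at 400 bp (1.70 to 2.20), and resting Th2 at 1.05, 1.86 and 2.13. Naive was at 0.466, 0.930 and 1.29 times the input at these distances and at 1.04 (0.872 to 1.23) at 5000 bp. The input had a peak of its own, 0.619 RPM at the centre, 0.318 at 200 bp and 0.151 at 5000 bp.

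**Figure D3:**
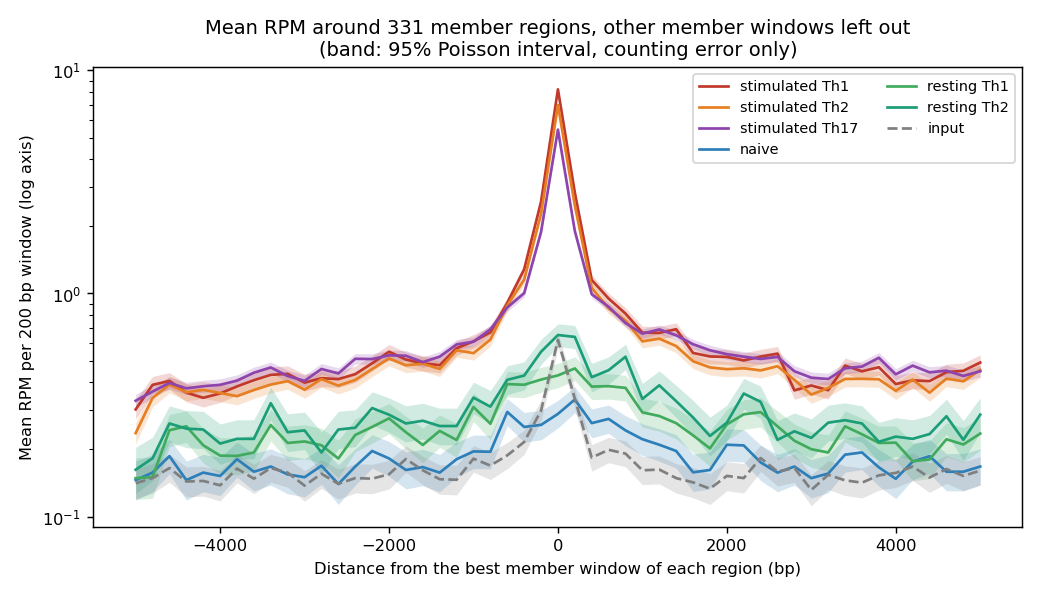
Mean RPM per window (log axis) by distance in bp from the best window of 331 member regions, 1 line per library with its 95% Poisson band, other member windows left out. The stimulated lines peak at 8.22, 6.99 and 5.42 RPM in Th1, Th2 and Th17 and the dashed input line at 0.619 RPM, while the naive line stays at 0.257 to 0.296 RPM within 400 bp on average over both sides.

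Among the stimulated libraries, Th1 and Th2 were close and Th17 stood lower. The rule sets a floor in each of them and does not use their differences. Pooled over members, stimulated Th1 was at 1.18 times stimulated Th2 (1.15 to 1.21). Stimulated Th17 was at 0.655 times stimulated Th1 (0.640 to 0.672) and at 0.775 times stimulated Th2 (0.756 to 0.795). With all repeated reads kept, these last ratios were 0.746 and 0.885. Of the 351 members, 229 had their highest level in stimulated Th1, 92 had it in stimulated Th2 and 30 had it in stimulated Th17, while 259 were lowest in stimulated Th17. A lower Th17 level was also found over the 1369 windows described below, where Th17 was at 0.588 times Th1 and 0.667 times Th2.

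Few members differed by 3-fold between stimulated subsets. None was called higher or lower in stimulated Th1 against stimulated Th2, where 2.47% of all tested windows were higher and 2.56% lower. In stimulated Th17 against stimulated Th1, 8 members were at least 3-fold lower and none higher, beside 8.61% lower and 5.03% higher among all tested windows. In stimulated Th17 against stimulated Th2 none was called, beside 9.15% lower and 5.25% higher. The floor of 4 RPM in every stimulated library limits how far members can differ. The highest stimulated library was at 1.53 times the lowest in the median member. Across the 351 members, which share libraries and depth, Pearson's r of log2 RPM was 0.70 between stimulated Th1 and Th2, 0.36 between stimulated Th17 and Th1 and 0.44 between stimulated Th17 and Th2. The values over the 1369 other windows were 0.81, 0.66 and 0.69, and the cut-off at 4 RPM truncates both sets.

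**Figure D4:**
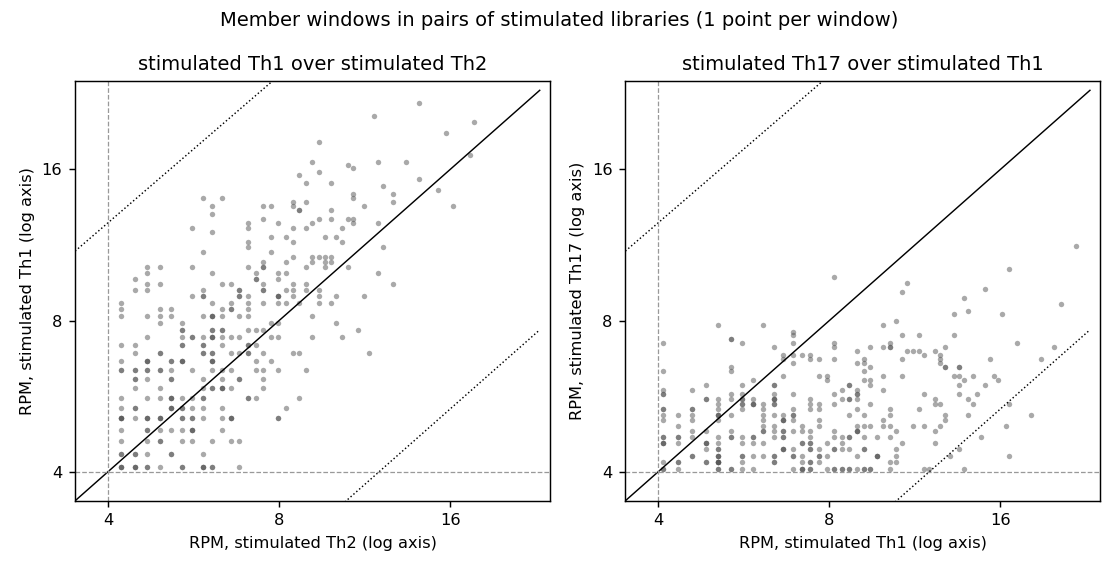
RPM (log axes) of the 351 members in pairs of stimulated libraries, 1 point per window, with the line of equal levels, dotted lines at 3-fold and dashed lines at the floor of 4 RPM. Points of Th1 against Th2 lie on both sides of the line of equal levels (pooled ratio 1.18), and most points of Th17 against Th1 lie below it (pooled ratio 0.655).

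The members that differed most between stimulated subsets were ranked by the end of the interval nearest 1. The most in favour of Th1 over Th2 was on chromosome 9, 64412201 to 64412400, with 14.0 RPM in stimulated Th1 against 5.87 in stimulated Th2, which makes 2.39 times (1.47 to 4.01). On chromosome 2 at 91788001 to 91788200 and on chromosome 7 at 53176001 to 53176200 the ratio was 2.22 in both cases. Th2 exceeded Th1 most on chromosome 11, 78885201 to 78885400, with 6.89 RPM in stimulated Th1 against 11.5 in stimulated Th2 and an interval of the ratio of 0.360 to 0.978. The next in that direction, on chromosome 15 at 27755201 to 27755400 and on chromosome 9 at 58827001 to 58827200, had intervals that included 1.

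Th17 was furthest below Th1 on chromosome 5, 115685201 to 115685400, with 4.31 RPM in stimulated Th17 and 16.6 in stimulated Th1, a ratio of 0.260 (0.166 to 0.399). The regions from 11627201 to 11627400 on chromosome 2 and from 139959801 to 139960000 on chromosome 7 had ratios of 0.287 and 0.302. Against Th2, Th17 was lowest on chromosome 3, 68412801 to 68413000, at 5.70 against 16.2 RPM, a ratio of 0.352 (0.236 to 0.520). The ratio of Th17 to Th2 was 0.374 on chromosome 9 at 20780201 to 20780400 and 0.403 on chromosome 2 at 118489201 to 118489400. Among the members named for these differences, the ratios furthest from 1 all had Th17 as the lower library.

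Members in favour of Th17 had ratios nearer to 1. The highest ratio to Th1 was on chromosome 16, 24475001 to 24475200, with 7.22 RPM in stimulated Th17 and 4.08 in stimulated Th1, a ratio of 1.77 (1.001 to 3.30). Its 16 reads in stimulated Th1 are the lowest count the floor allows. Intervals here are also not adjusted for the picking of extremes. Those of chromosome 15 at 83234601 to 83234800 and at 27522801 to 27523000 had ratios of 1.54 and 1.55 with intervals that included 1. The highest ratio to Th2 was also on chromosome 15, 58003001 to 58003200, with 9.76 RPM in stimulated Th17 against 6.10 in Th2, a ratio of 1.60 (1.01 to 2.60). The next, on chromosome 12 at 70517801 to 70518000 and on chromosome 2 at 153368801 to 153369000, had intervals that included 1.

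Members were a minority of the windows with reads in all 3 stimulated libraries. When the ceiling on unstimulated libraries was left out, 1720 autosomal windows met the rule, and the 351 members were 20.4% of them. Of the other 1369, 788 exceeded 1.5 RPM in all 3 unstimulated libraries, 339 in 2 of them and 242 in 1. Of these 242, the library that exceeded it was resting Th1 in 122, resting Th2 in 92 and naive in 28. At least 4 RPM was present in every library but input at 433 windows. The RPM of 1 read, and so the weight of a single read against this ceiling, was highest in resting Th2.

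Over input, the members' stimulated levels lay close to those of the other 1369 windows, and their RPM lay below. Members stood at 13.4, 11.3 and 8.77 times the input in stimulated Th1, Th2 and Th17, and the other windows at 12.8, 11.3 and 7.52 times. In RPM the members were lower, with means of 8.21, 6.94 and 5.38 RPM against 10.0, 8.82 and 5.88 RPM at the other windows, and so was their input, 0.614 against 0.783 RPM. Unstimulated cells had 4.12 RPM in naive, 6.58 in resting Th1 and 7.25 in resting Th2 at the other windows. At 200 bp the stimulated Th1 mean was 32.9% of the centre around members and 29.6% around the other windows. No test of these differences was made, because both sets were chosen on the same reads.

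Members lay on all 19 autosomes and mostly apart from each other. Chromosomes 8 and 11 held 31 members each, chromosome 2 held 30 and chromosome 14 the fewest, 6. As a share of the windows bound after stimulation on each chromosome, members ranged from 8.99% on chromosome 17 (3.96% to 16.9%) and 10.1% on chromosome 1 to 27.5% on chromosome 18 (14.6% to 43.9%). These intervals take windows as independent trials, which neighbours are not. On the X chromosome, which the rule leaves out, 16 windows met the stimulated and input cut-offs and 0 of them the unstimulated ones. A count of 0 allows up to 18.8% of 16.

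Of the 331 regions, 50 had another within 50000 bp and 20 within 10000 bp. Regions within 50000 bp of each other formed 23 groups, of which 4 held 3 regions each. These 4 lay on chromosome 9 from 20780201 to 20808000, on chromosome 15 from 79854801 to 79893400, on chromosome 8 from 129350201 to 129406000 and on chromosome 2 from 168357801 to 168420600. The group on chromosome 9 had 122, 111 and 116 reads in stimulated Th1, Th2 and Th17, against 4 in naive, 3 in resting Th1 and 6 in resting Th2. That on chromosome 15 had 111, 84 and 131 stimulated reads against 2 in naive, 2 in resting Th1 and 0 in resting Th2. The group on chromosome 8 spanned 55800 bp and held 6 windows bound after stimulation, 3 of which exceeded the ceiling in at least 1 unstimulated library. The median distance from a member to the nearest of the 1369 other windows was 135200 bp, and 13 members had such a window directly beside them.

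Reads dropped as repeats were not used to choose members, and their share was higher at members than over the genome in the stimulated libraries. Repeats made up 38.5% of the reads at members in stimulated Th1 (37.8% to 39.2%), 38.5% in stimulated Th2 and 45.2% in stimulated Th17, beside 11.4%, 11.8% and 10.2% of all autosomal reads. At the other 1369 windows the stimulated shares were higher still, 47.2%, 50.8% and 55.2%, so a raised share was not particular to members. In naive the share at members was 43.0% (37.9% to 48.2%), beside 41.4% over the autosomes, in resting Th1 29.2% beside 28.6% and in resting Th2 38.3% (33.9% to 42.8%) beside 36.6%. The intervals of the 3 unstimulated shares include the autosomal ones, while the other 1369 windows had 47.5% to 54.0% repeats in the same libraries. The ceiling holds members to at most 3 distinct positions in naive and 2 in each resting library, and the other windows exceed it in at least 1 of these. This contrast is thus tied to the choice of members, and nothing is read from it. Copies made by PCR and separate molecules at 1 position cannot be told apart, since no molecular identifier is in these reads. With all reads counted at the same members, the fold was 27.3 in Th1, 15.2 in Th2 and 29.6 in Th17 over naive. With all reads counted, 279 of the 351 members stayed at or under 1.5 RPM in every unstimulated library, and 41 exceeded it in resting Th2, 22 in resting Th1 and 16 in naive.

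Forward and reverse reads were offset around members in the stimulated libraries. Within 250 bp of the centre of the best window, the median 5′ end of reverse reads lay downstream of that of forward reads by 97, 90 and 92 bp in stimulated Th1, Th2 and Th17. The offset was 8.5 bp in naive, 12.5 bp in resting Th1 and 9 bp in resting Th2, with 524, 651 and 728 reads in all, and 51 bp in input. Around the other 1369 windows it was 94, 84 and 88 bp in stimulated Th1, Th2 and Th17, 82 bp in naive, 83 bp in resting Th1 and 76 bp in resting Th2, and 39 bp in input. An offset of this kind is the usual trace of fragments read from both ends around a site. The shift of 75 bp in the rule favours windows with it in the stimulated libraries, and the ceiling on shifted reads removes windows with it in the unstimulated ones, so the difference in offset between states follows from the choice of members and supports nothing.

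**Figure D5:**
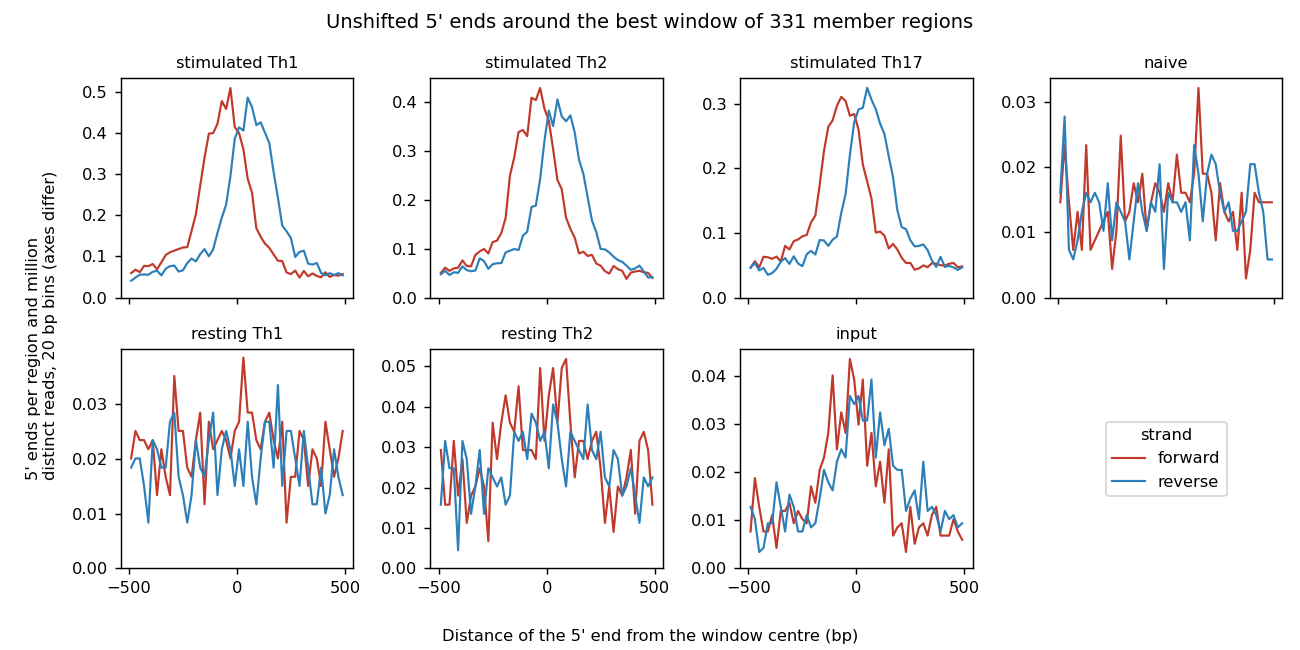
Unshifted 5′ ends of forward and reverse reads per region and 1000000 distinct reads, in 20 bp bins by distance in bp from the centre of the best window of 331 regions, 1 panel per library with its own axis from 0. Forward reads lie left of reverse reads in the 3 stimulated panels (median offsets 97, 90 and 92 bp), and the offsets in the naive and resting panels, which the ceiling of the rule keeps small, are 8.5 to 12.5 bp.

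Many windows lay close to a cut-off. The floor of 4 RPM corresponds to 16, 18 and 32 reads in stimulated Th1, Th2 and Th17, and 17, 20 and 31 members had just these counts. A further 4, 17 and 24 windows missed membership by a single read in these libraries and met all other cut-offs. The ceiling of 1.5 RPM allows 3 reads in naive and 2 in each resting library, and 24, 84 and 95 members were at it, with 15, 43 and 45 windows 1 read above. Stimulated Th17 set the limit most often, since 431 windows failed its floor only, against 35 for stimulated Th1 and 101 for stimulated Th2.

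Just inside the floor were chromosome 2, 11452001 to 11452200, 91787801 to 91788000 and 166472801 to 166473000, each with 4.05 RPM in stimulated Th17. Just outside it were chromosome 1, 169185801 to 169186000, 179387001 to 179387200 and 182129401 to 182129600, each with 3.99 RPM in stimulated Th2. At the ceiling, the windows from 43823201 to 43823400, from 156986001 to 156986200 and from 173044201 to 173044400 on chromosome 1 had 1.49 RPM in resting Th2. Above it, those from 59219801 to 59220000 on chromosome 1 and from 13495201 to 13495400 and 33032201 to 33032400 on chromosome 2 had 1.66 RPM in resting Th1. The input cut-off was passed at 3.01 times by windows on chromosome 2 from 38392201 to 38392400, chromosome 5 from 115685201 to 115685400 and chromosome 11 from 113331401 to 113331600. It was missed at 2.98 times on chromosome 18 from 75439001 to 75439200 and at 2.95 times on chromosome 5 from 148126801 to 148127000. The third nearest miss, at 2.94 times, was on chromosome 12 from 114036001 to 114036200, with 76, 51 and 53 reads in stimulated Th1, Th2 and Th17, 0 in the unstimulated libraries and 7 in input.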

How the data were processed

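Each library is 1 deposited list of aligned reads of 34 bases with chromosome, start, end and strand, aligned to mm9 per the submitters' processing notes. For the authors' aligner nothing is given in the sources used here. In these lists, repeats of a 5′ end on 1 strand were reduced to 1 read, chromosome Y was dropped, each 5′ end was moved 75 bp inward, and reads were counted in 200 bp windows from base 0 (Python 3.11.15, NumPy 2.4.6, pandas 2.3.3, SciPy 1.17.1). Levels carry 95% Poisson intervals, shares Clopper-Pearson intervals, and ratios exact conditional intervals. No p-value is given, since each group has 1 library. A window with at least 10 reads in a pair was called at 3-fold where its interval left out 1. Named regions are the 10 with the highest lowest stimulated RPM, the 5 widest, the 3 at each end for each pair of stimulated libraries, and the 3 on each side of each cut-off. Groups of regions within 50000 bp were formed after values were seen. The members and lists were chosen with earlier results of these data known. Steps were tested on simulated data.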

Additional observations from a re-analysis of the deposited data

Results flagged for a closer look

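Repeated reads, which the measurement leaves out, made up a larger share at members in every BRG1 library than in input, where it was 13.7% (11.5% to 16.2%). The share was 38.5%, 38.5% and 45.2% in stimulated Th1, Th2 and Th17, 43.0% in naive, 29.2% in resting Th1 and 38.3% in resting Th2. Over all autosomal windows it was 11.4%, 11.8% and 10.2% in the stimulated libraries and 41.4% in naive, 28.6% in resting Th1 and 36.6% in resting Th2.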

How the results depend on the processing

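The number of members depends on the cut-offs. Against 351, it was 920 with a stimulated floor of 3 RPM, 67 with 6 RPM, 197 with an unstimulated ceiling of 1 RPM and 210 with at least 5 times the input. It was 686 with all repeated reads kept, of which 270 were among the 351, and 532 with the unstimulated libraries pooled, an alternative added after the data were seen. Leaving 1 library out of the rule gave 379 to 1337 windows, with the highest number without stimulated Th17. In all, 13 of 20 alternatives stayed within 1.5 times of 351. A similar number did not mean the same windows: with every BRG1 library thinned to the shallowest there were 380, of which 185 were members. At the 369 windows chosen on 50% of the reads, of which 195 were members, the other 50% gave pooled folds of 9.34 in Th1, 5.63 in Th2 and 12.1 in Th17 over naive. With all reads kept, an alternative added later, the folds at members were 27.3, 15.2 and 29.6. In the flanks, all reads gave 5.35, 3.81 and 6.49, and windows 2 to 5 away 2.52, 2.00 and 3.31. With all reads, Th17 over Th1 at members was 0.746 and Th17 over Th2 0.885. None of these ratios changed direction, and the cause of the shifts was not tested. No paired analysis was possible because each group has 1 library and the labels give no replicate numbers. Depth limits the unstimulated side most, where members hold 0 to 3 reads in a library.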
